A study of Homo sapiens with 2 samples.

Results

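Small nucleolar RNA (snoRNA) host genes were read in HCT116 cells, an established human colon carcinoma line, after treatment with LXR623, which activates liver X receptors. The treated culture received 20 µM LXR623 for 24 h and the control culture 0.1% DMSO, both in medium with 1.5% serum, and total RNA of each was hybridized to 1 expression array. They comprised 10 host genes, found by symbol: GAS5, SNHG1, SNHG5, SNHG6, SNHG7, SNHG8, SNHG12, SNHG15, ZFAS1 and EPB41L4A-AS1. The choice was made with earlier results of these data known. Of these, 9 had a probe set among the 23786 of the value table. SNHG1 had none and is described below only through its snoRNAs. Values are log2 intensities, and every difference given is LXR623 minus DMSO on the log2 scale. There is 1 array per condition, so no error, test or replicate check can be given for any of them, and anything else that differed between the dishes cannot be told apart from the compound.

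Host genes of this kind are transcribed as long RNAs whose introns are the source of snoRNAs, while the spliced exons mostly encode no long protein. The snoRNAs guide chemical marks on ribosomal RNA: the C/D type guides ribose methylation and the H/ACA type guides pseudouridylation. Many host transcripts begin with a TOP tract, a C followed by further pyrimidines at the first transcribed bases, which they share with ribosomal protein mRNAs and which couples translation to mTORC1. The spliced transcripts are short-lived for many hosts, since ribosomes that read their short frames expose them to nonsense-mediated decay (NMD). GAS5 was named for its accumulation in growth-arrested cells.

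The 9 host genes did not move in 1 direction. GAS5 and EPB41L4A-AS1 were at least 1.5-fold higher in the LXR623 array, SNHG15 and SNHG7 at least 1.5-fold lower, and the other 5 lay in between. Thus 2 of 9 were higher, where 6.30% of all 12279 measured probe sets were, and 2 of 9 lower, where 5.78% were. The host genes were chosen with earlier results of these data known, so these shares are a description and measure no enrichment. Measured probe sets were those whose brighter array was at or above 4.42, the median over the whole table, and all 9 passed in both arrays. Among measured long noncoding RNAs (lncRNAs), 386 in number, 11.1% were at least 1.5-fold higher and 5.44% lower. The median difference of the 9 host genes was 0.11, against -0.02 over all measured probe sets and 0.10 over the measured lncRNAs, and 5 of the 9 lay above 0.

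**Figure D1:**
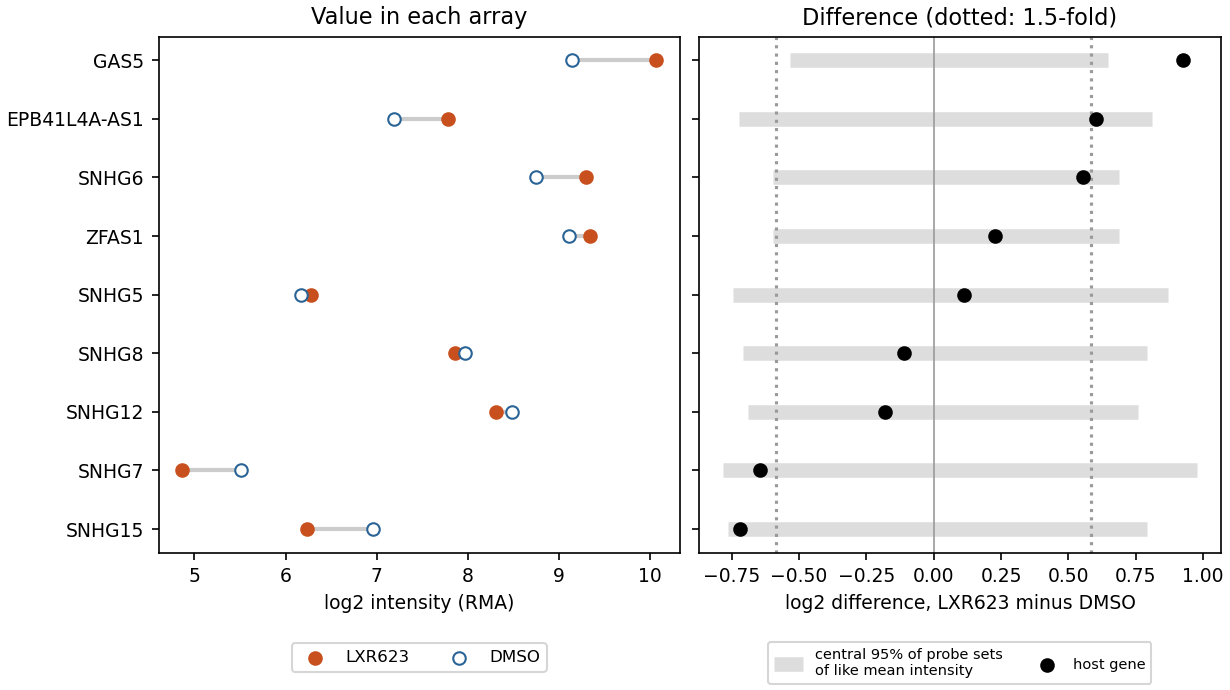
Left, log2 intensity of the 9 host genes in the LXR623 array (filled) and the DMSO array (open); right, the log2 difference, LXR623 minus DMSO, as a point, over a gray bar for the central 95% of measured probe sets of like mean intensity, with dotted lines at 1.5-fold. GAS5, with 0.92, is the only host gene outside its bar, which ends at 0.65.

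GAS5 showed the largest difference of the host genes. Its value was 10.07 in the LXR623 array and 9.14 in the DMSO array, a difference of 0.92, or 1.90-fold. It ranked 227 from the top among the 12279 measured probe sets and 14 among the 386 lncRNAs. To set each host gene against probe sets of like brightness, the measured probe sets were split into 20 bins of mean intensity, each of 613 or 614. In the bin of GAS5, the central 95% of differences ran from -0.53 to 0.65. GAS5 lay outside this range and was the only one of the 9 host genes to do so, which places it among the larger differences between these arrays without giving an error for it.

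The other hosts of C/D snoRNAs all had positive differences, though none reached 1.5-fold. Among the 386 measured lncRNAs, 226 were above 0. SNHG6, host of a single C/D snoRNA, had 9.30 in the LXR623 array and 8.75 in the DMSO array, a difference of 0.55, or 1.47-fold. This lay just under the threshold of 0.585, as the value of EPB41L4A-AS1 lay just above it. ZFAS1, which is transcribed away from the promoter of ZNFX1 and holds the SNORD12 family, had 9.34 with LXR623 and 9.11 with DMSO, a difference of 0.23. SNHG5, host of both copies of U50, had 6.28 with LXR623 and 6.17 with DMSO, a difference of 0.11. Over the 4 C/D hosts with a probe set the median was 0.39.

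Of the 4 hosts of H/ACA snoRNAs, 3 had negative differences and 2 were at least 1.5-fold lower. Over all 12279 measured probe sets, 6345 had a negative difference and 5.78% were at least 1.5-fold lower. SNHG15, known as a short-lived transcript, had 6.24 in the LXR623 array and 6.96 in the DMSO array, a difference of -0.72, or 1.64-fold lower. It was the 11th lowest of the 386 lncRNAs and stood at rank 389 from the bottom of all measured probe sets. SNHG7 had 4.87 with LXR623 and 5.51 with DMSO, a difference of -0.64, or 1.56-fold lower. Both lay within the central 95% of their bins, which began at -0.76 for SNHG15 and at -0.78 for SNHG7. SNHG8 had 7.86 with LXR623 and 7.97 with DMSO, a difference of -0.11. EPB41L4A-AS1, which lies beside and partly across the protein-coding gene EPB41L4A, was the exception: it had 7.79 in the LXR623 array and 7.19 in the DMSO array, a difference of 0.60, or 1.52-fold higher, with the central 95% of its bin from -0.72 to 0.81. SNHG12, which holds 3 H/ACA snoRNAs and 1 of the C/D type, had 8.31 with LXR623 and 8.49 with DMSO, a difference of -0.18. The median of the 4 H/ACA hosts was -0.38. With 4 genes in each class these are counts, not a comparison of the classes.

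**Figure D2:**
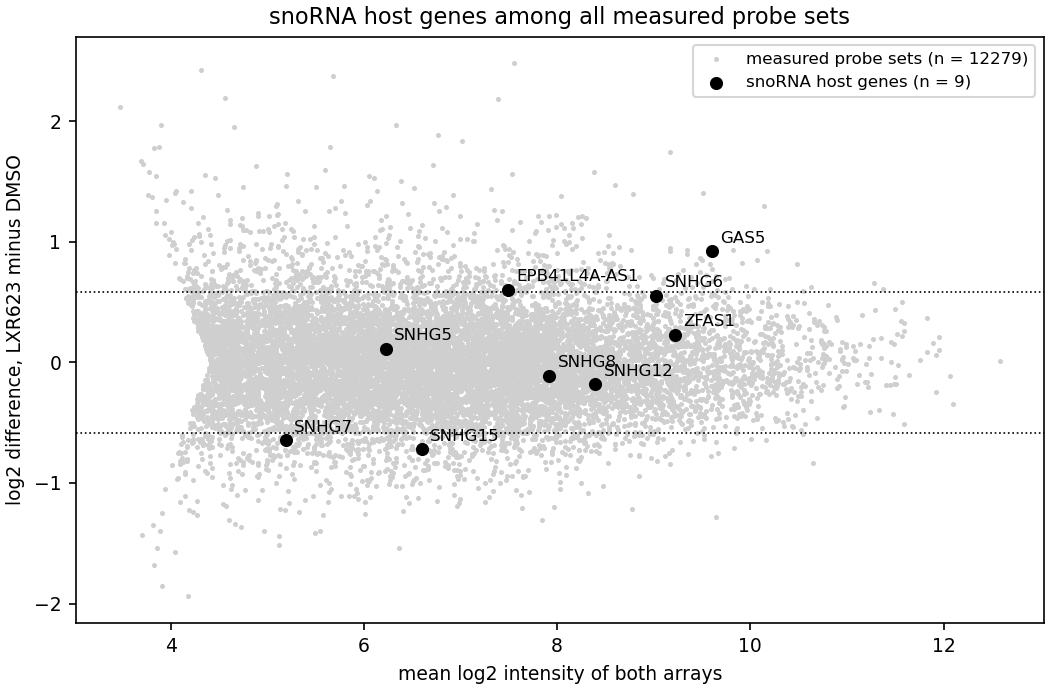
Log2 difference, LXR623 minus DMSO, against the mean log2 intensity of both arrays for the 12279 measured probe sets (gray) and the 9 host genes (black), with dotted lines at 1.5-fold. GAS5 and SNHG6 stand toward the upper edge of the bright probe sets, and SNHG15 and SNHG7 toward the lower edge of dimmer ones.

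Because the TOP tract is known from this family, the start of each host gene was read from RefSeq (GRCh38.p14). Promoters were listed for 8 of the 10. A start was counted as TOP-like when a C within 10 bases of the annotated first base was followed by at least 4 further pyrimidines. This held for 5 of 8 host genes, for 33.3% of 27303 promoters and for 78.6% of 42 promoters of measured ribosomal proteins. With the C required at the annotated first base itself, a rule chosen after the data were seen, it held for 3 of 8 host genes (SNHG5, ZFAS1 and SNHG12), for 4.04% of all promoters and for 61.9% of the ribosomal protein promoters. The windows below run from 30 bases before the start through the first 30 bases of the transcript, on the strand of the gene, and are shown because the host genes with the largest differences can be set beside those with a TOP-like start. Capitals mark the TOP-like run and windows without capitals hold none by this rule. They lie at chr1:173869016-173869075 (minus strand) for GAS5, chr5:112160496-112160555 (plus) for EPB41L4A-AS1, chr20:49278612-49278671 (plus) for ZFAS1, chr6:85678704-85678763 (minus) for SNHG5, chr4:118278732-118278791 (plus) for SNHG8, chr1:28581844-28581903 (minus) for SNHG12 and chr9:136728155-136728214 (minus) for SNHG7.
GAS5: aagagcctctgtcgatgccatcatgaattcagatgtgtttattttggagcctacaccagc
EPB41L4A-AS1: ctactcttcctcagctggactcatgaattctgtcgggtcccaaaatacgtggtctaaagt
ZFAS1: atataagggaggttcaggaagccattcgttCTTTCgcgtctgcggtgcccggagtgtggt
SNHG5: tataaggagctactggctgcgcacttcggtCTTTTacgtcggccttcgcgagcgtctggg
SNHG8: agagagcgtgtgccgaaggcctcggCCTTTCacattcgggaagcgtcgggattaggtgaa
SNHG12: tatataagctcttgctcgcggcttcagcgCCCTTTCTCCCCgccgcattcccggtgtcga
SNHG7: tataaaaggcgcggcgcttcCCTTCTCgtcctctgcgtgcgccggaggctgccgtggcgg

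The 5 host genes with a TOP-like run had differences on both sides of 0: 0.23 for ZFAS1, 0.11 for SNHG5, -0.11 for SNHG8, -0.18 for SNHG12 and -0.64 for SNHG7. The run of SNHG7, of 7 bases, begins 10 bases before the annotated first base and so ends before the annotated transcript. That of SNHG8 begins 5 bases before it. Both host genes that were at least 1.5-fold higher, GAS5 and EPB41L4A-AS1, had no run in this window, nor did SNHG1. A missing run says only that these letters are not at that annotated start. Other starts of the same gene were not read, so it does not show that a host gene lacks a TOP tract. The annotated start was the RefSeq gene end on its strand for 88.79% of promoters. The sequence CACGTG, the E-box to which MYC and MAX bind, was searched on both strands of the 300 bases around each start. It was present in 1 of the 8 promoters, that of SNHG7, in 7.44% of all promoters and in 10.5% of promoters of measured genes. TGATGNAA, a core of the elements that ATF4 and C/EBP proteins bind, was in 0 of the 8. It was in 3.67% of all promoters and in 1.66% of promoters of measured genes. A match is a description of the letters and not a site.

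The snoRNAs of the host introns have probe sets of their own. RefSeq places 33 snoRNAs within the 10 host genes by the list used, and 29 of them had a probe set, all of them measured. For SNHG7, neither SNORA17A nor SNORA17B had one. Of the 29, 0 were at least 1.5-fold higher in the LXR623 array and 4 at least 1.5-fold lower, where 6.21% and 7.91% of the 177 measured snoRNAs of all hosts were. The 4 include SNORD77, which counted as measured through the DMSO array alone. Their median difference was -0.08, against -0.02 over those 177. Probes for an intronic snoRNA read both the mature snoRNA and unspliced host RNA, and snoRNAs with near-identical copies, such as the SNORD12 family and the SNORD50 pair, may share signal, so single values are uncertain.

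GAS5 stood above every snoRNA of its own introns. Of its 10 C/D snoRNAs 9 were measured, and their differences ran from -0.61 to 0.42, with a median of 0.18, against 0.92 for the host. SNORD44, often used as a reference RNA in small RNA assays, had 9.55 in the LXR623 array and 9.21 in the DMSO array, a difference of 0.35. SNORD47 had 8.92 with LXR623 and 8.50 with DMSO, a difference of 0.42, and SNORD76 had 11.07 with LXR623 and 10.70 with DMSO, a difference of 0.38. SNORD80 differed by 0.28, SNORD79 by 0.18 and SNORD81 by 0.04. In the other direction, SNORD77 had 4.05 with LXR623 and 4.66 with DMSO, a difference of -0.61, and it counted as measured through the DMSO array alone. SNORD75 had 6.86 with LXR623 and 7.29 with DMSO, a difference of -0.43, and SNORD74 differed by -0.29. Thus 6 snoRNAs of GAS5 were above 0 and 3 below.

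SNHG1 is represented by its snoRNAs alone. Of its 8 C/D snoRNAs 7 were measured, 5 above 0 and 2 below, with a median of 0.21. SNORD27 had 8.558 in the LXR623 array and 8.001 in the DMSO array, a difference of 0.56, the highest of all 29. SNORD29 had 9.19 with LXR623 and 9.35 with DMSO, a difference of -0.16, the lowest of this host, and SNORD30 differed by -0.08. SNORD22, SNORD26, SNORD28 and SNORD31 lay between 0.12 and 0.28. None of the 7 passed 1.5-fold, and they say nothing of the level of the spliced SNHG1 transcript.

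In several hosts the snoRNA and the host lay on opposite sides of 0. The 3 snoRNAs of ZFAS1 were all lower in the LXR623 array: SNORD12C had 8.03 with LXR623 and 8.77 with DMSO, a difference of -0.74, SNORD12 had 7.33 with LXR623 and 7.83 with DMSO, a difference of -0.50, and SNORD12B differed by -0.11, against 0.23 for ZFAS1 itself. SNORA13, the snoRNA of EPB41L4A-AS1, had 5.67 with LXR623 and 6.32 with DMSO, a difference of -0.65, while its host was higher by 0.60. The pair in SNHG5 was split, with 0.38 for SNORD50A and -0.77 for SNORD50B, which had 6.32 in the LXR623 array and 7.09 in the DMSO array. SNORD12C and SNORD50B were just outside the central 95% of their bins, which began at -0.69 for SNORD12C and at -0.76 for SNORD50B. SNORD87 of SNHG6 had 11.67 with LXR623 and 11.46 with DMSO, a difference of 0.22, beside 0.55 for its host.

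In SNHG15, SNHG12 and SNHG8, snoRNAs and host were all below 0. SNORA9 of SNHG15 had 6.07 in the LXR623 array and 6.61 in the DMSO array, a difference of -0.54, beside -0.72 for the host. Of SNHG12, SNORA44 differed by -0.29, SNORD99 by -0.22, SNORA16A by -0.12 and SNORA61 by -0.11, and SNORA24 of SNHG8, a guide for 18S ribosomal RNA, differed by -0.02. Over the 8 hosts that had a probe set and a measured snoRNA, 14 of 22 snoRNAs had the sign of their host and 17 of 22 had a difference under that of their host. Of the 17, 9 were of GAS5, the host with the largest difference, and 3 of ZFAS1. The 22 are not independent, since snoRNAs of 1 host share its transcript.

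**Figure D3:**
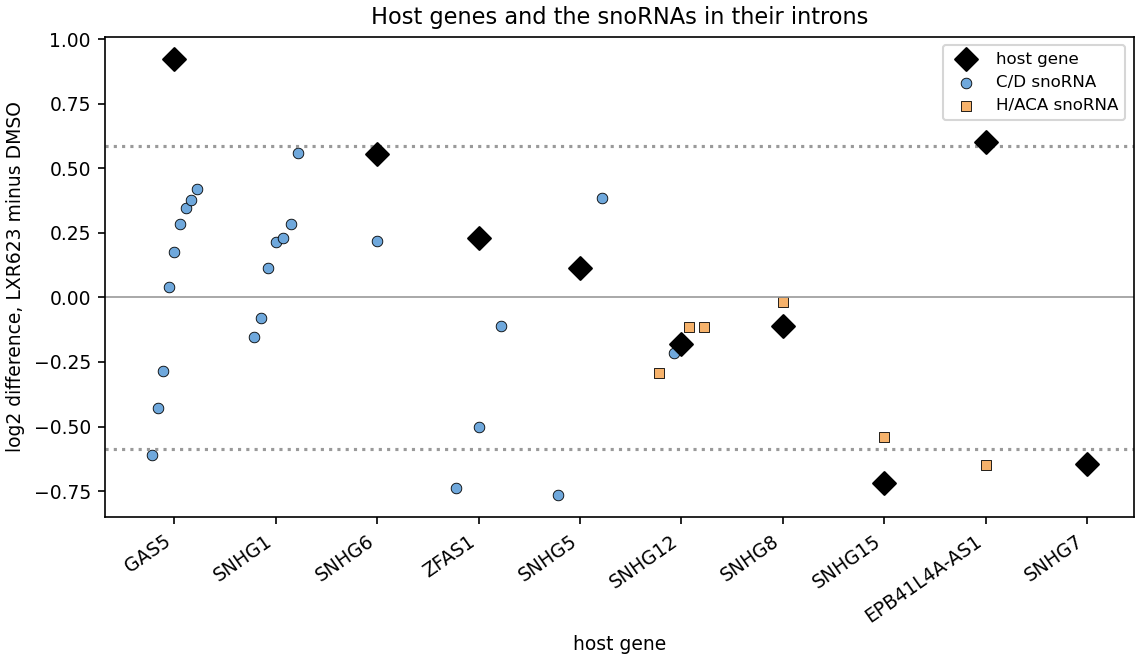
Log2 difference, LXR623 minus DMSO, of each host gene (diamond) and of the snoRNAs in its introns (circles, C/D type; squares, H/ACA type), with dotted lines at 1.5-fold; points of a host are spread sideways by size only. SNHG1 has no host point and SNHG7 no snoRNA point, and the diamond of GAS5 stands above its 9 snoRNAs, which reach 0.42.

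By snoRNA type, all 6 measured H/ACA snoRNAs of the host genes had negative differences, with a median of -0.20, whereas 13 of their 23 C/D snoRNAs were above 0. SNORA16A, SNORA44 and SNORA61 share the host SNHG12, and GAS5 and SNHG1 hold 9 and 7 of the C/D snoRNAs. The counts by type are thus not of independent snoRNAs. Among the other hosts of the table, 19 of 53 measured H/ACA snoRNAs were above 0, with a median of -0.12, and 53 of 95 C/D snoRNAs, with a median of 0.07. Over all 118 measured C/D snoRNAs the median was 0.08. Without the filter on dim probe sets it was -0.06, while that of the H/ACA snoRNAs was -0.16, against -0.12 for the 59 measured ones. These shifts are small beside the range of single snoRNAs, and no test was run.

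Genes that overlap a host gene or start close to it were read beside it, since the strand that the probes read is not given in the sources used here. ZBTB37, a zinc finger gene that overlaps GAS5 and starts in the opposite direction, had 5.84 in the LXR623 array and 6.23 in the DMSO array, a difference of -0.39. The antisense RNA GAS5-AS1, with 3.58 in the LXR623 array and 3.82 in the DMSO array, was under the measured level in both arrays. SLC3A2, the heavy chain of several amino acid transporters, starts opposite to SNHG1 and had 9.97 with LXR623 and 9.65 with DMSO, a difference of 0.32. EPB41L4A, a cytoskeletal gene, differed by 0.22 beside 0.60 for its antisense host. TRNAU1AP, which acts on the selenocysteine tRNA, had 6.02 with LXR623 and 6.59 with DMSO, a difference of -0.57, beside -0.18 for SNHG12. DIPK1B at the locus of SNHG7 differed by -0.32, and MCMDC2, which overlaps SNHG6, had the same dim value of 1.83 in both arrays. By a wider rule chosen after the data were seen, ZNFX1 beside ZFAS1 had 6.94 with LXR623 and 7.47 with DMSO, a difference of -0.53, PRSS12 beside SNHG8 differed by -0.09 and MYO1G beside SNHG15 was under the measured level. No neighbor with a probe set passed 1.5-fold.

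Further host genes were read from a list outside the 10. Of 20 other host lncRNAs listed, 16 had a probe set and 11 were measured, with 1 at least 1.5-fold higher, 0 lower and a median of -0.19. Among all measured lncRNAs, 11.1% were at least 1.5-fold higher and 5.44% lower. These hosts were not sorted by snoRNA type. SNHG32 had 9.34 in the LXR623 array and 8.64 in the DMSO array, a difference of 0.70. DANCR had 8.15 with LXR623 and 8.54 with DMSO, a difference of -0.39, the lowest of the measured ones. SNHG10 differed by -0.33, SNHG3 by -0.24, SNHG16 by -0.23, SNHG17 by -0.22 and SNHG9 by -0.19, while SNHG19 differed by 0.21, SNHG29 by 0.19 and SNHG20 by 0.13. SNHG11 had the same value, 4.76, in both arrays. MEG3, MEG8, SNHG4, SNHG18 and SNHG21 were under the measured level.

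Of 34 measured protein-coding genes that also carry snoRNAs, 24 had a negative difference, with a median of -0.13, and 1 in each direction passed 1.5-fold. RPL23A, of the large ribosomal subunit, had 0.63 and EIF4A2, an RNA helicase of translation initiation, 0.55. EEF1B2, an exchange factor of translation elongation, had -0.65 and HSPA8, the constitutive cytosolic HSP70, -0.52. Over all 12279 measured probe sets, 6345 had a negative difference, 6.30% were at least 1.5-fold higher and 5.78% lower. Of the 8 core proteins of C/D and H/ACA particles, 7 were below 0 and 0 passed 1.5-fold, with a median of -0.18. SNU13, which binds the C/D RNA first, had 7.20 with LXR623 and 7.48 with DMSO, a difference of -0.29, and fibrillarin (FBL), the methyltransferase, differed by -0.16. NOP56 and NOP58 of the C/D particle differed by -0.21 and -0.20, DKC1, the pseudouridine synthase, by -0.20, GAR1 by -0.15, NOP10 by -0.14 and NHP2 by 0.02. Of 13 assembly factors, 1 was at least 1.5-fold lower and 11 were below 0, with a median of -0.24. NUFIP1, an assembly factor of C/D particles, had 6.31 with LXR623 and 7.04 with DMSO, a difference of -0.73, and SHQ1, a chaperone of DKC1, differed by -0.53.

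TOP mRNAs were read as the transcripts closest to the host genes in their starts. Over all measured probe sets, 6.30% were at least 1.5-fold higher and 5.78% lower. Of 50 measured ribosomal protein genes, found by symbol and with 4 paralogs such as RPS27L among them, the median was 0.08, with 2 at least 1.5-fold higher and 5 lower. Among the 5, RPS3A, with 3.41 in the LXR623 array and 4.46 in the DMSO array, counted as measured through the DMSO array alone. RPL29 had the lowest difference, -1.23, and RPS26 had -0.95, whereas RPS27L had 0.64. Their probe sets may share signal with pseudogene copies. Of 18 other TOP mRNAs, 0 were higher and 1 lower, with a median of 0.09, EIF4B being at 0.58 and EEF2, the translocation factor, at 0.37. Of 16 genes of mTORC1 and of TOP control, 2 were higher and 1 lower, where 6.30% and 5.78% of all measured probe sets were. DDIT4, an inhibitor of mTORC1, had 8.03 in the LXR623 array and 6.59 in the DMSO array, a difference of 1.44, and SESN2, another inhibitor, had 0.71. RHEB, the activator of mTORC1, differed by -0.89. LARP1, which binds TOP tracts, differed by -0.04.

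Factors of NMD, the decay path that limits GAS5 in growing cells, were measured for 21 genes. Of these 0 passed 1.5-fold in either direction, and their median was -0.11. UPF1, the central helicase, had 8.36 with LXR623 and 8.39 with DMSO, a difference of -0.03, and SMG1, the kinase that acts on it, differed by -0.20. ETF1 and GSPT1, the release factors of translation termination, had the lowest values, -0.48 and -0.47. Of 18 measured protein-coding mRNAs known as targets of this decay, 4 were at least 1.5-fold higher and 0 lower, where 6.30% and 5.78% of all measured probe sets were. The median was 0.08, or 0.29 over 20 without the filter on dim probe sets, which adds DDIT3, with 4.09 in the LXR623 array and 3.10 in the DMSO array, and UPP1, with 4.07 in the LXR623 array and 3.44 in the DMSO array. The higher ones were CDKN1A, a cell cycle inhibitor and p53 target, with 0.89, CARS1, a tRNA synthetase, with 0.82, ATF3, a stress transcription factor, with 0.78 and NAT9 with 0.59, of which ATF3 and CARS1 are also ATF4 targets. ATF3, with 4.66 in the LXR623 array and 3.87 in the DMSO array, counted as measured through the LXR623 array alone. At the other end, the splicing factor SRSF3 had the lowest difference, -0.47, followed by SRSF6 with -0.20. The NMD factors whose own mRNAs are targets, SMG1, UPF2, SMG5 and SMG6, lay between -0.20 and 0.04.

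**Figure D4:**
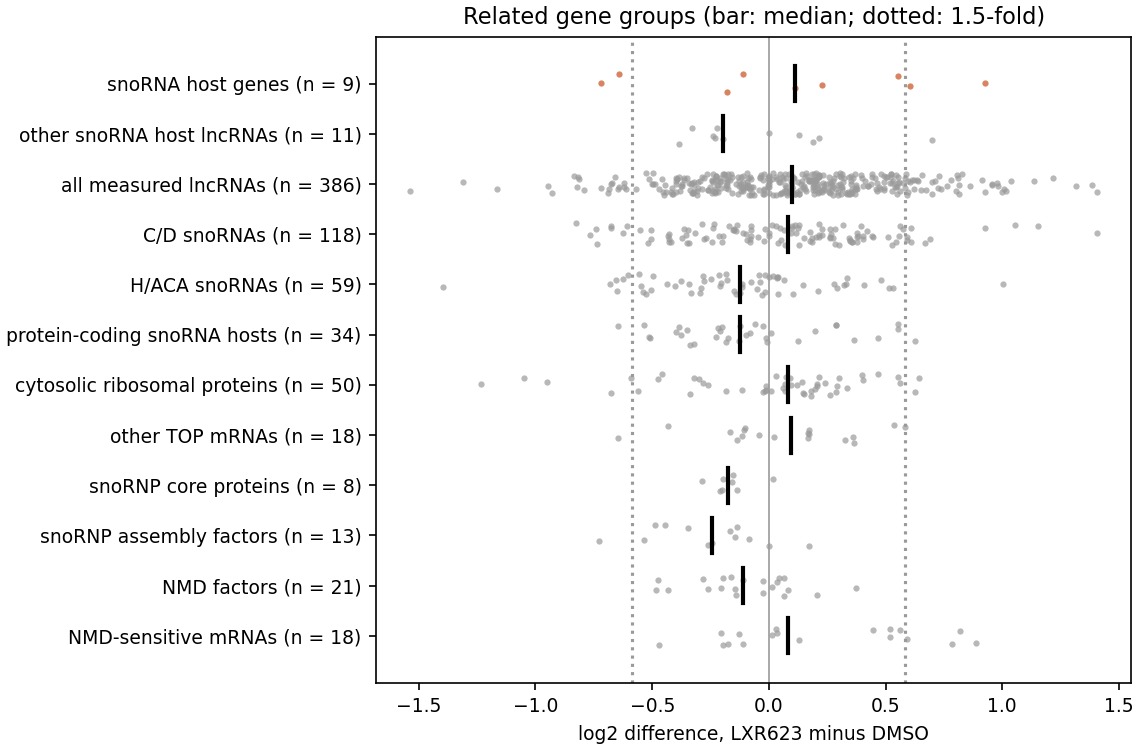
Log2 difference, LXR623 minus DMSO, of measured genes in the 12 groups named at the left, which leave out the MYC network, the mTORC1 genes and the lncRNAs that host no snoRNA as groups of their own, 1 point per gene (spread up and down at random), with the median as a bar and dotted lines at 1.5-fold; the 9 snoRNA host genes are in the top row. Medians of these groups lie between -0.24 and 0.11.

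Among further lncRNAs that host no snoRNA, NEAT1, the scaffold of paraspeckles, had 8.98 with LXR623 and 8.17 with DMSO, a difference of 0.81, and was the 1 of 15 measured that passed 1.5-fold. TUG1 differed by 0.53, UCA1 by 0.55 and MALAT1, a nuclear speckle RNA, by 0.17, and the median of the 15 was 0.17. Among all measured lncRNAs, 11.1% were at least 1.5-fold higher and 5.44% lower. Of the MYC network, whose proteins bind the E-box, MYC itself had 9.74 with LXR623 and 9.61 with DMSO, a difference of 0.13. Of its 10 measured genes MLX was lower with -0.64 and MXD4, a MYC antagonist, higher with 1.14. Over all measured probe sets, 5.78% were lower and 6.30% higher. MXD4, with 5.29 in the LXR623 array and 4.15 in the DMSO array, counted as measured through the LXR623 array alone.

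Of 11 colon epithelial markers 6 were measured, where 12279 of all 23786 probe sets were, so this count does not check the labelled line. The 6 were EPCAM, CDH1, KRT18, KRT19, CDX2 and KRT8. EPCAM had 10.21 in the LXR623 array and 10.15 in the DMSO array, and KRT8 had 7.14 with LXR623 and 5.63 with DMSO. CDX1, CEACAM5, KRT20, LGALS4 and VIL1 were under the measured level in both. Of 7 leukocyte, endothelial and fibroblast markers with a probe set, COL1A1 alone was measured, with 5.70 with LXR623 and 5.58 with DMSO. The correlation of both arrays was 0.988 across probe sets, which are not independent replicates. In RNA from whole cultures, fewer cells that express a gene and less of its RNA per cell cannot be told apart.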

How the data were processed

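Total RNA of HCT116 cells was labelled with biotin by a whole-transcript kit and hybridized to Affymetrix arrays, 1 for LXR623 and 1 for DMSO. The authors deposited RMA summaries on the log2 scale, made per the labels with affy 1.36.1 in R 2.15.1. The array design and a genome build are not given in the sources used here. RMA normalizes the arrays to each other, so a change shared by most genes cannot be seen.

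Probe sets were named through the annotation of the platform and RefSeq gene IDs: 22458 of 23786 had 1 symbol, 0 had several and 1328 are unnamed here. Promoters and neighbors came from RefSeq (GRCh38.p14). Neighbors were genes that overlap a host gene or start within 5000 bases of its start. The wider rule added genes whose range lies within 5000 bases of the range of the host gene. The host genes and gene lists were chosen with earlier results of these data known. Named genes are all host genes and neighbors, the snoRNAs and further host lncRNAs that matter to each paragraph, and genes drawn from the up to 8 largest measured differences of each other list; others named (LARP1, UPF1, SMG1, SMG5, SMG6, UPF2, SRSF6, DDIT3, UPP1, MALAT1) were picked after their values were seen. Calls used 1.5-fold. With 2 arrays no test was run, and the number of arrays limits the precision. Alternatives tried were dropping the filter, lowering it to the 25th percentile, calling at 2-fold, lowess trend removal (fraction 0.3), subtraction of the median, quantile normalization and the mean. Calculations used Python 3.11.15, numpy 2.4.6, pandas 2.3.3 and statsmodels 0.14.6, and figures matplotlib 3.10.9. Scripts were first run on simulated arrays with known differences.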

Additional observations from a re-analysis of the deposited data

How the results depend on the processing

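At a 2-fold threshold, 0 host genes were higher and 0 lower, against 2 and 2 at 1.5-fold. Shares of all probe sets past the threshold are not given here for 2-fold or for the other settings below. The counts are therefore a description only. With no filter, with a filter at the 25th percentile, without the lowess trend, with the median subtracted or with quantile normalization, both counts were 2, and the median of the host genes ran from 0.11 to 0.14, with a mean of 0.09. Each of the 9 host genes kept its sign and its side of 1.5-fold without the trend, with the median subtracted and with quantile normalization: GAS5 ran from 0.92 to 0.94, EPB41L4A-AS1 from 0.60 to 0.63, SNHG6 from 0.55 to 0.58, SNHG7 from -0.65 to -0.62 and SNHG15 from -0.72 to -0.68. The largest gap between sorted values of the arrays was 0.21. Leaving out a replicate and a paired analysis were not possible because there is 1 array per condition. Among the lists, the median of NMD-sensitive mRNAs was 0.29 without the filter or with one at the 25th percentile and their mean 0.23, against a median of 0.08. The mean was 0.09 for genes of mTORC1 and TOP control and -0.03 for further host lncRNAs, against medians of -0.04 and -0.19. The cause was not tested.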
